A study of Arabidopsis thaliana with 18 samples.

Results

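Stage 12 flowers of the *myb21-5 myb24-5* mutant, mutated in the genes for the flower transcription factors MYB21 and MYB24, were compared with stage 12 wild-type flowers. The comparison took the 6 arrays of the series' 18 that the labels give as *myb21-5 myb24-5* or wild type at stage 12, with 3 biological replicates (A, B and C) in each group. All plants were *Arabidopsis thaliana* of the Columbia ecotype. Stage 12 flowers were the largest closed buds, taken whole in the morning, and RNA was hybridised to Affymetrix ATH1 arrays. The *myb21-5* allele is a chemically induced stop codon and *myb24-5* carries a T-DNA in the first intron. Plants carrying both mutations came from stocks kept as *myb21/+ myb24*, and no array held either mutant alone, so the share of each gene cannot be told apart. No treatment was applied. The other 12 arrays hold *arf6-2 arf8-3* flowers at stage 12 and all 3 genotypes at stage 13, described as the first open flowers. Flowers of both double mutants stay closed, and how their stage 13 flowers were chosen for the arrays is not stated. These 12 arrays were used only to set the stage 12 values in context.

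MYB21 and MYB24 are closely related R2R3 MYB factors of petals, stamens and gynoecium. They act downstream of the hormone jasmonate, whose JAZ repressor proteins bind them, and loss of both leaves flowers with short petals and stamen filaments, closed anthers and poor self-pollination. Jasmonate is made from plastid lipids by lipoxygenases, cyclases and acyl-CoA ligases. The auxin response factors ARF6 and ARF8 act upstream, since jasmonate production in flower buds depends on them. The comparison asks which genes depend on the MYB pair in buds about to open.

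The 6 arrays were alike in scale, with medians of 7.711 to 7.785 on the log2 scale. The SD of the difference between 2 arrays was 0.293 to 0.437 within these groups and 0.349 to 0.563 between them. A gene stands here for its probe set, and levels are log2 values as deposited. Replicates are given in the order A, B, C. Only differences within a probe set were compared, since levels of different probe sets have no common scale.

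The mutated genes still gave signal. *MYB21* (At3g27810) read 12.47, 12.38 and 12.36 in wild type and 10.62, 10.96 and 11.42 in the mutant, a fall of 2.64-fold (log2 change −1.40, SE 0.19, adjusted p = 0.0167). The groups did not overlap, but the call was kept in only 2 of 6 fits that left out 1 array each. A second *MYB21* probe set moved by −1.32 (adjusted p = 0.0851). *MYB24* (At5g40350) read 10.24, 9.47 and 9.99 in wild type and 8.1, 9.23 and 9.29 in the mutant, a change of −1.03 (SE 0.34, adjusted p = 0.236) that was not called. A stop codon need not remove a transcript, and where the *MYB24* probes lie relative to the insertion was not checked, so these levels do not test the labels. The upstream genes *ARF6* (9.55 in each group mean) and *ARF8* (10.28 against 9.89, adjusted p = 0.459) were not called.

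At an adjusted p under 0.05 and a change of at least 2-fold, 233 of 22746 probe sets (1.02%) were lower in *myb21-5 myb24-5* and 69 (0.303%) were higher. The falls were also larger. Of the lower probe sets, 56 fell at least 4-fold and 13 at least 16-fold, with a largest fall of 55.7-fold, whereas 4 of the 69 rose at least 4-fold and the largest rise was 5.25-fold. The median change of all probe sets was 0.00. In 42 of the lower probe sets the mutant mean was under 5.7, the 25th percentile of values on these arrays, and in 22 of those the wild-type mean was above the median of 7.74. Without the fold limit 384 were lower (1.69%) and 160 higher (0.703%). Groups did not overlap for any called probe set, while among all tested 2133 were lower (9.38%) and 1738 higher (7.64%) without overlap, 3871 in all (17%). With the replicate letter as a block the counts were 293 lower and 106 higher, and 231 of the 233 and all 69 were among them. The counts leaned on mutant array B: without it 85 were lower and 9 higher. Without wild-type A they were 139 and 37, and without wild-type B 173 and 26. A fit of all 18 arrays together gave 188 and 33.

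**Figure D1:**
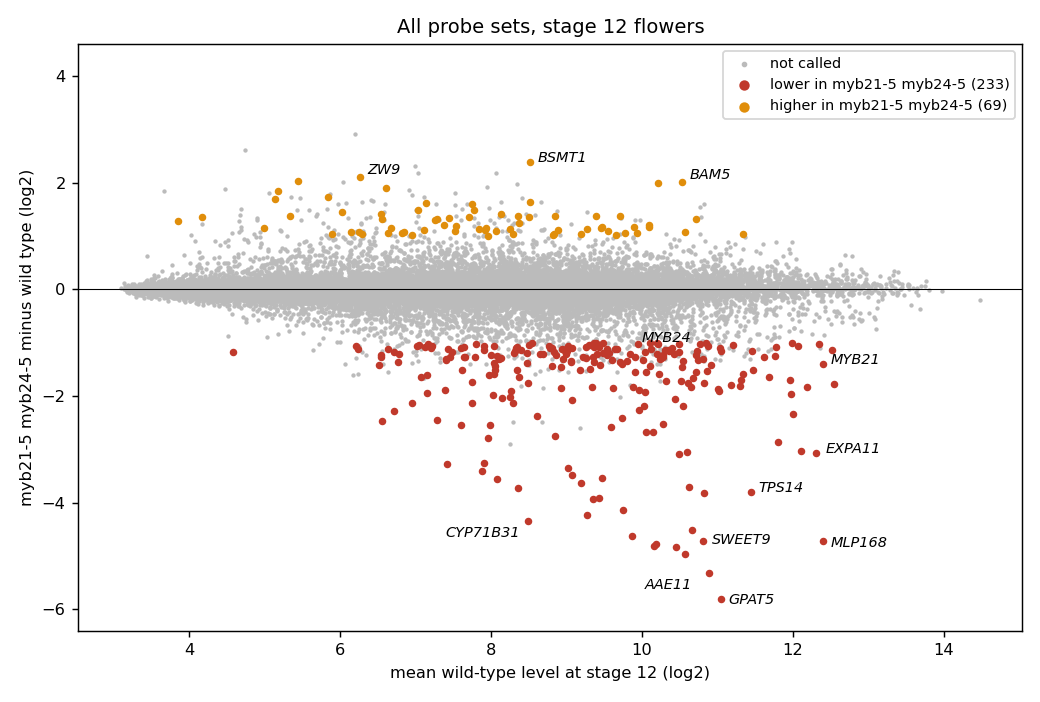
Each point is a probe set, with its mean wild-type level at stage 12 on the x axis and the difference of *myb21-5 myb24-5* from wild type on the y axis, both in log2 units. Coloured points are the 233 lower and 69 higher probe sets, and the falls reach further from 0 than the rises.

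Terpenoid scent genes had the lowest median change of the 26 lists examined. Of 11 measured genes of terpenoid synthesis and linalool metabolism, 7 fell and none rose, with a median change of −1.86 beside 0.00 for all probe sets. *TPS24* (At3g25810), a monoterpene synthase gene, read 10.06, 10.68 and 9.74 in wild type and 5.21, 5.38 and 5.47 in the mutant, 28.0-fold lower (log2 change −4.81, SE 0.23, adjusted p = 0.000159). *TPS21* (At5g23960) encodes the caryophyllene synthase, the main sesquiterpene enzyme of flowers, and fell from 10.04, 10.46 and 10.05 to 4.72, 5.77 and 5.74 (27.4-fold, adjusted p = 0.000575). The 3 mutant arrays were far below every wild-type array for each of these synthases. *TPS11* (At5g44630), which encodes another sesquiterpene synthase, fell less, from 11.79, 12.13 and 11.96 to 9.91, 10.52 and 10.36 (3.25-fold, adjusted p = 0.00627). *TPS14* (At1g61680) encodes a linalool synthase and was singled out after its values were seen. It fell from 11.3, 11.69 and 11.34 to 7.02, 8.02 and 7.9 (13.9-fold, adjusted p = 0.00119). *TPS10* was also called, with a change of −1.79 (adjusted p = 0.0145). *TPS02* (−0.85, adjusted p = 0.3) and *TPS04*, which had a positive change (0.87, adjusted p = 0.476), were not called.

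Of 4 cytochrome P450 genes on the terpenoid list, 2 that oxidise linalool fell. *CYP76C3* (At2g45580) read 10.94, 10.62 and 10.44 in wild type and 6.18, 6.06 and 6.24 in the mutant (22.7-fold lower, SE 0.14, adjusted p = 3.26e-05), the smallest adjusted p among the named genes. *CYP71B31* (At3g53300) read 8.57, 9.08 and 7.8 against 4.09, 4.09 and 4.23 (20.4-fold, adjusted p = 0.000982). These calls, and those of *TPS24*, *TPS21*, *TPS11* and *TPS14*, held in each of the 6 fits that left out 1 array. *CYP76C1*, which also oxidises linalool, had a change of −1.86 (adjusted p = 0.087) and *CYP706A3* of −0.9 (adjusted p = 0.052), and neither was called. Cytochromes P450 as a whole had a median change of 0.05, and of 44 measured 7 fell and 3 rose. Without mutant array B 3 fell and 1 rose, and without wild-type C 3 fell. The other named P450 genes that fell were *CYP71B38*, by 1.98 on the log2 scale (adjusted p = 0.0165), and *CYP71B27*, by 1.88 (adjusted p = 0.0355).

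List counts need their background. The deposited platform table named 13513 probe sets, of which 0.821% were lower and 0.244% higher. Another 512 got their names from tables of the study, whose genes had been selected on the same arrays. Of these 22.9% were lower and 6.45% higher, so counts that rest on them are not independent evidence. For the terpenoid list, 3 of 3 platform-named and 4 of 8 study-named members fell. Of 22 platform-named cytochromes P450, 3 fell and none rose, beside 0.821% and 0.244% of all platform-named probe sets. These 3 include *CYP71B31*, which is also on the terpenoid list. Of 22 study-named cytochromes P450, 4 fell and 3 rose.

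Nectary genes were lower too. Of 11 measured genes of nectaries and nectar, 8 fell and none rose (3 of 4 named by the platform table, 5 of 7 through the study's tables), with a median change of −1.33. The 11 include the mutated *MYB21* and the scent gene *TPS11*, both among the 8, and *ARF6*. Without these 3 genes 6 of 8 fell, with a median of −1.32. The number of the 11 that fell was 4 without mutant array B and 4 in the fit of all 18 arrays. *SWEET9* (At2g39060), the sucrose exporter that nectar secretion requires, read 11.17, 11.14 and 10.12 in wild type and 5.98, 5.98 and 6.31 in the mutant, 26.4-fold lower (SE 0.28, adjusted p = 0.000549). *CWINV4* (At2g36190), the cell wall invertase of nectaries, fell from 11.35, 11.5 and 11.03 to 9.34, 9.5 and 9.62 (3.5-fold, adjusted p = 0.00229), and its relative *CWINV1* (At3g13790) by 1.41 on the log2 scale (adjusted p = 0.00883). For all 3 the lowest wild-type array was above the highest mutant array. *YAB5* (At2g26580), a YABBY transcription factor gene, fell from 7.8, 7.23 and 7.16 to 6.39, 6.18 and 5.63 (2.52-fold, adjusted p = 0.0403), a call kept in 1 of the 6 fits that left out 1 array.

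Not all nectary genes were called. *CRC* (At1g69180), needed to form nectaries, had group means of 9.71 in wild type and 9.86 in the mutant (change 0.15, adjusted p = 0.868). *JMT* (At1g19640), the jasmonate methyltransferase of nectaries, had 9.56 and 8.80 (adjusted p = 0.0828). The summed linear level of the 8 nectary genes other than *MYB21*, *TPS11* and *ARF6* was 6290 to 8920 in wild type and 2650 to 3187 in the mutant. With those 3 it was 16090 to 19020 and 5907 to 7927. In whole flowers fewer cells of a type and less RNA per cell cannot be told apart.

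Other sugar transporters fell outside the nectary list. *SWEET13* (At5g50800) read 10.83, 10.3 and 10.81 in wild type and 9.01, 8.76 and 8.67 in the mutant (3.57-fold, adjusted p = 0.00402). *SWEET14* (At4g25010), chosen after its values were seen, fell from 11.12, 9.91 and 11.42 to 7.5, 6.87 and 6.66 (14.0-fold, adjusted p = 0.00637). Both calls held in each fit with 1 array left out. SWEET proteins carry sugars across membranes along the gradient, and *SWEET13* and *SWEET14* are close relatives. Cross-hybridisation between them was not tested. Of 9 measured genes for water and sugar transport, *SWEET13* alone was called.

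Genes for lipid polyesters, the fatty polymers of cutin and suberin, held 3 of the 4 largest falls of named genes. *GPAT5* (At3g11430), an acyltransferase gene needed to build suberin, read 11.27, 10.41 and 11.45 in wild type and 5.16, 5.33 and 5.25 in the mutant, 55.7-fold lower (log2 change −5.80, SE 0.25, adjusted p = 0.000117). *AAE11* (At1g66120), an acyl-activating enzyme gene, fell from 10.54, 11.34 and 10.79 to 5.56, 5.38 and 5.75 (40.1-fold, adjusted p = 9.97e-05). *KCS17* (At4g34510), which encodes a condensing enzyme of fatty acid elongation, fell from 11.08, 9.1 and 11.19 to 5.44, 5.62 and 5.8 (28.6-fold, adjusted p = 0.00658). The mutant means of 5.25, 5.56 and 5.62 lay under the 25th percentile of 5.7, so these folds may understate the falls and their order follows the wild-type level. The wild-type spread was widest for *KCS17*. These 3 and *GPAT1* (log2 change −1.01, adjusted p = 0.0176) were the 4 that fell of 11 measured cutin, wax and suberin genes, and none rose. Except for *WSD1*, which was not called, the 11 were named through the study's tables, and the list's median change was −0.32.

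ABC transporters of the G class fell alongside, among them genes known for suberin barriers. Of 7 ABC transporter genes, all named through the study's tables, 4 fell and none rose, but 1 was called without wild-type A or without mutant array B. *ABCG6* (At5g13580) read 9.32, 7.9 and 10.01 in wild type and 5.57, 5.61 and 5.59 in the mutant (11.2-fold, SE 0.47, adjusted p = 0.0158). *ABCG20* (At3g53510) read 9.93, 8.2 and 10.29 against 5.99, 5.9 and 5.94 (11.6-fold, adjusted p = 0.0164). Wild-type array B was the lowest for both, as it was for *KCS17* and *MYB108*, and their calls were kept in 4 of 6 fits with 1 array left out. *ABCG1* (At2g39350) had tighter replicates, at 10.44, 10.68 and 10.49 against 8.92, 9.08 and 9.24 (2.75-fold, adjusted p = 0.00277), and its call held in all 6. *ABCG21* fell by 1.14 on the log2 scale (adjusted p = 0.0383).

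**Figure D2:**
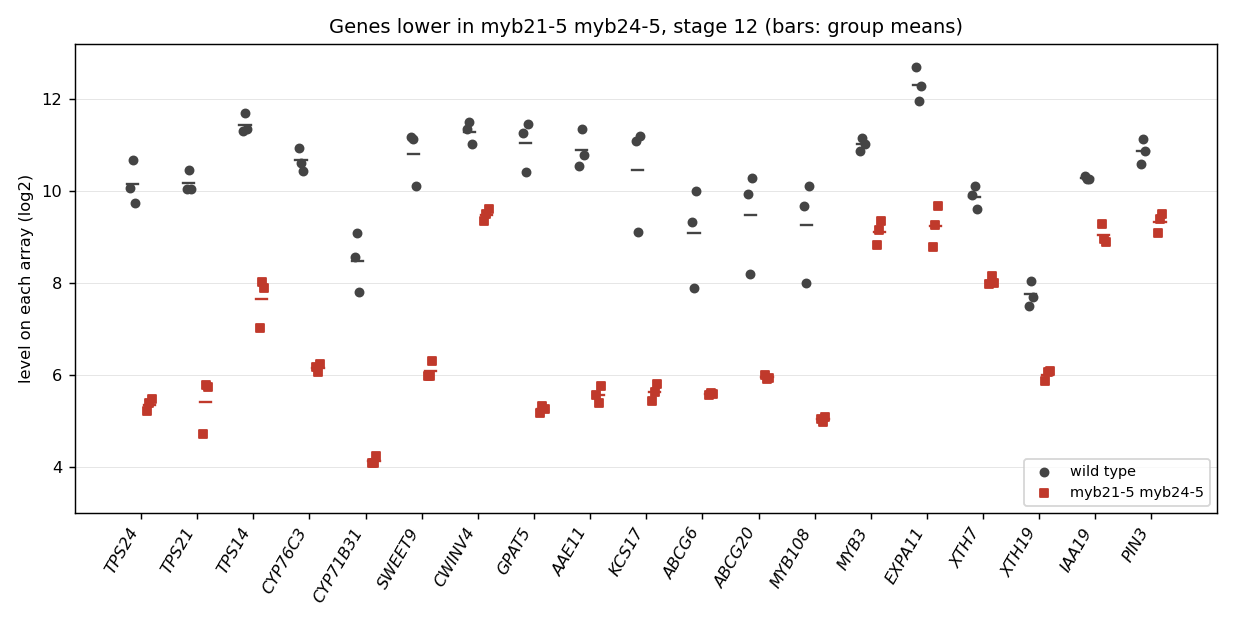
Levels (log2) on each array for 19 genes that fell, with wild type as grey circles, *myb21-5 myb24-5* as red squares and bars at group means of 3 arrays. No gene's groups overlap, and wild-type replicates are spread most for *KCS17*, *ABCG6*, *ABCG20* and *MYB108*.

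Further MYB genes were among the falls. *MYB108* (At3g06490), a jasmonate-responsive gene of stamen maturation, read 9.68, 8.01 and 10.12 in wild type and 5.04, 4.98 and 5.08 in the mutant (18.9-fold, SE 0.48, adjusted p = 0.00825, kept in 5 of 6 fits with 1 array left out). *MYB3* (At1g22640), a repressor of phenylpropanoid genes, fell from 10.87, 11.15 and 11.03 to 8.83, 9.16 and 9.35 (3.74-fold, adjusted p = 0.00229), and *MYB6* (At4g09460) by 1.41 on the log2 scale (adjusted p = 0.0021). The calls for *MYB3* and *MYB6* held in all 6. *MYB57* (At3g01530), a close relative of the mutated pair, read 8.2, 9.63 and 9.71 in wild type and 5.62, 6.78 and 7.36 in the mutant. Its change of −2.59 (SE 0.53) missed the threshold (adjusted p = 0.0582; with the replicate letter as a block, 0.000747). Of 14 named MYB genes, all named through the study's tables, 5 fell, the mutated *MYB21* among them, and 1 rose, and without mutant array B 2 fell and none rose.

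Wall-loosening genes fell in part. Of 32 measured expansin and xyloglucan hydrolase genes, 7 fell and none rose (2 of 23 platform-named, 5 of 9 study-named), with a median change of −0.23. Without mutant array B, wild-type B or wild-type C 4 were called. *EXPA11* (At1g20190) read 12.71, 11.95 and 12.29 in wild type and 8.79, 9.26 and 9.68 in the mutant, 8.39-fold lower (adjusted p = 0.00308). *XTH7* (At4g37800) fell from 9.91, 10.12 and 9.6 to 7.97, 8.15 and 8.0 (3.56-fold, adjusted p = 0.0022) and *XTH19* (At4g30290) from 7.5, 8.05 and 7.7 to 5.87, 6.06 and 6.09 (3.34-fold, adjusted p = 0.00361). These 3 kept their calls in every fit with 1 array left out. *XTH30* fell by 1.22 on the log2 scale (adjusted p = 0.0412) and kept its call in 1 of 6. One pectin gene went the other way, as *PME61* (At3g59010), a pectin methylesterase gene, rose from 7.49, 7.15 and 7.68 to 8.38, 8.88 and 9.07 (2.52-fold, adjusted p = 0.026).

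Auxin-related genes fell in small numbers. The Aux/IAA repressor gene *IAA19* (At3g15540) read 10.32, 10.26 and 10.27 in wild type and 9.28, 8.96 and 8.9 in the mutant (2.36-fold, SE 0.12, adjusted p = 0.00541). *IAA6* (At1g52830) fell from 7.34, 8.34 and 8.44 to 6.33, 6.52 and 6.52 (3.0-fold, adjusted p = 0.0381). They were the 2 called of 13 measured Aux/IAA genes, the median of which was −0.06, and *IAA6* kept its call in 1 of 6 fits with 1 array left out against 6 of 6 for *IAA19*. Both were among the 6 study-named Aux/IAA genes, and none of the 7 platform-named ones was called. *SAUR25* (At4g13790), of the growth-promoting SAUR family, fell from 9.98, 9.07 and 9.73 to 6.61, 6.98 and 7.43 (6.0-fold, adjusted p = 0.00721). *SAUR64* (log2 change −1.46, adjusted p = 0.0426) and *SAUR33* (−1.20, adjusted p = 0.0344) fell, and *SAUR12* (At2g21220) rose from 9.51, 9.62 and 9.85 to 10.64, 10.67 and 10.71 (2.02-fold, adjusted p = 0.00816). That made 3 lower and 1 higher of 19 measured *SAUR* genes, and with the replicate letter as a block 7 were lower. These 4 calls were all among the 16 study-named *SAUR* genes, and none of the 3 platform-named ones was called. For scale, 22.9% of all study-named probe sets were lower and 6.45% higher. Without mutant array B no *SAUR* gene was called. *SAUR64* belongs to a cluster of similar genes, and cross-hybridisation was not tested.

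Of 11 measured genes of auxin synthesis, conjugation and transport, 2 fell and none rose, with a median change of −0.15. The falls were 1 of 8 platform-named and 1 of 3 study-named members. *PIN3* (At1g70940), an auxin efflux carrier gene, read 10.58, 11.14 and 10.87 against 9.08, 9.39 and 9.51 (2.9-fold, adjusted p = 0.00828). *GH3.17* (At1g28130), whose enzyme joins auxin to glutamate, fell from 7.71, 8.25 and 8.19 to 6.26, 6.64 and 6.69 (2.86-fold, adjusted p = 0.0102). Groups did not overlap for either gene, and each call was kept in 5 of 6 fits with 1 array left out, the exception being the fit without mutant array B. No call was made among 3 auxin response factor genes (median −0.06) or 6 genes of the gibberellin pathway (median 0.12).

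The lists left out several large falls. *MLP168* (At1g35310), of the major latex protein family, read 12.61, 12.0 and 12.59 in wild type and 7.72, 7.62 and 7.69 in the mutant, 26.4-fold lower (SE 0.17, adjusted p = 7.23e-05). At3g22910, which encodes a calcium-transporting ATPase, fell from 10.61, 10.03 and 11.06 to 5.72, 5.54 and 5.56 (31.1-fold, adjusted p = 0.000166), and At4g12530 from 9.77, 10.46 and 9.39 to 5.25, 5.27 and 5.25 (24.5-fold, adjusted p = 0.000311). Each of the 3 calls held in all 6 fits with 1 array left out. Other named falls belonged to lists or families that moved little. The neighbouring glycosyltransferase genes *UGT85A3* (At1g22380) and *UGT85A1* (At1g22400) fell 8.46-fold (adjusted p = 0.00375) and 4.55-fold (adjusted p = 0.00855), while 3 of 49 measured genes of their superfamily fell and 1 rose. Without mutant array B 1 of the 49 fell and none rose. *ASN1* (At3g47340), the asparagine synthetase gene induced by darkness and low sugar, fell from 12.13, 10.91 and 12.38 to 8.5, 8.98 and 9.33 (7.31-fold, adjusted p = 0.016). It was the 1 that fell of 14 measured genes of sugar starvation and senescence, where 1 rose and the median was 0.08, and it was not called without wild-type A or mutant array B. *AGP14* (At5g56540), an arabinogalactan protein gene, fell 2.93-fold (adjusted p = 0.00744).

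The called genes of jasmonate synthesis moved the other way. Of 10 measured, 3 rose and none fell, with a median change of 0.71. Among the 4 platform-named members 2 rose and the other 2 had negative changes. Among the 6 study-named members 1 rose and all 6 had positive changes, which is not independent evidence. *LOX4* (At1g72520), a lipoxygenase gene for the first step, read 7.67, 7.63 and 7.84 in wild type and 8.78, 8.9 and 9.54 in the mutant (2.57-fold higher, SE 0.20, adjusted p = 0.021). *OPCL1* (At1g20510), the CoA ligase of the peroxisomal steps, rose from 8.46, 8.29 and 8.14 to 9.42, 9.37 and 9.24 (2.06-fold, adjusted p = 0.00816), and *4CL8* (At5g38120), a related ligase gene, from 9.09, 8.87 and 8.56 to 9.63, 10.06 and 9.94 (2.05-fold, adjusted p = 0.0319). *LOX2* changed by 0.62 (adjusted p = 0.0467), under the fold cutoff, as did *AIM1*, of the beta-oxidation steps, by −0.58 (adjusted p = 0.0383), and *AOS* by 0.59 (adjusted p = 0.127) and *OPR3* by 0.52 (adjusted p = 0.0826). Of 6 fits that left out 1 array each, 4 called *OPCL1*, 2 called *LOX4* and 2 called *4CL8*. No member was called without mutant array B, without wild-type C or in the fit of all 18 arrays.

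Jasmonate signalling genes were higher in value as well. All 12 measured genes had a positive change, of 0.11 to 1.6, and 3 were called higher. Of the 12, 10 were named through the study's tables, so their shared sign is not independent evidence. The 2 platform-named genes, *MYC3* and *MYC4*, changed by 0.35 and 0.28 and were not called. *JAZ8* (At1g30135), a JAZ repressor gene, read 6.82, 6.42 and 6.43 in wild type and 7.86, 7.9 and 7.86 in the mutant (2.48-fold, SE 0.13, adjusted p = 0.00541, held in all 6 fits with 1 array left out). *JAZ5* (At1g17380) rose from 9.69, 9.29 and 9.67 to 10.44, 10.72 and 10.75 (2.12-fold, adjusted p = 0.016), and *JAZ2* (At1g74950) from between 9.68 and 10.11 to 11.06, 11.02 and 10.88 (2.08-fold, adjusted p = 0.0134). No mutant array of these 3 genes was as low as any wild-type array. *JAZ9* changed by 0.85 (adjusted p = 0.0158), *JAZ7* by 1.60 (adjusted p = 0.124; with the replicate letter as a block, 0.00943, which made 4 called), and *MYC2*, the transcription factor that JAZ proteins restrain, by 0.56 (adjusted p = 0.0633). The list's called members were named through the study's tables, and the fit of all 18 arrays called none of them. Without wild-type B or mutant array B 1 was called.

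The list of jasmonate turnover and methylation genes held the largest rise. *BSMT1* (At3g11480), a methyltransferase gene of the same family as *JMT*, read 8.1, 8.18 and 9.28 in wild type and 10.46, 10.83 and 11.44 in the mutant, 5.25-fold higher (log2 change 2.39, SE 0.36, adjusted p = 0.0232). Wild-type C was 1 log2 unit above the other wild-type arrays, and the call was kept in 3 of 6 fits with 1 array left out. Whether *BSMT1* acts on jasmonate was not tested, and the paper proposes only that it might make methyl jasmonate. *JOX3* (At3g55970), which encodes a jasmonate-inactivating oxygenase, rose from 7.58, 7.59 and 7.42 to 8.44, 8.78 and 8.91 (2.27-fold, adjusted p = 0.00984). Its relative *JOX4* (At2g38240) fell from 10.33, 9.36 and 10.22 to 7.64, 8.05 and 8.56 (3.68-fold, adjusted p = 0.0319). The jasmonate-inducible cystine lyase gene *CORI3* (At4g23600) rose from 10.47, 9.57 and 10.61 to 12.2, 12.11 and 12.31 (3.98-fold, adjusted p = 0.0146). In all, 4 of the 12 measured genes on this list rose, *BSMT1* and *CORI3* among them, and 1 fell. The rises were 3 of 6 platform-named and 1 of 6 study-named members, and the fall was platform-named. Without mutant array B none was called.

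Most of the 69 rises lay outside the jasmonate lists, which held 10. *BAM5* (At4g15210), a beta-amylase gene, had the smallest adjusted p of the named rises, at 10.52, 10.48 and 10.59 in wild type and 12.36, 12.66 and 12.62 in the mutant (4.04-fold, SE 0.11, adjusted p = 0.000417, held in all 6 fits with 1 array left out). *ZW9* (At1g58270), which encodes a TRAF-like protein, rose from 6.28, 5.52 and 7.0 to 8.15, 8.13 and 8.83 (4.3-fold, adjusted p = 0.0381). *RAP2.6* (At1g43160), an ethylene response factor gene, rose from 5.18, 5.17 and 5.96 to 7.02, 7.02 and 8.38 (4.1-fold, adjusted p = 0.0497). The calls for *ZW9* and *RAP2.6* were each kept in 1 of 6 fits with 1 array left out and that for *CB5-C* in none. *PAP20* (At3g52780), a purple acid phosphatase gene, rose 3.74-fold (adjusted p = 0.0148) and *GPT2* (At1g61800), a plastid sugar phosphate translocator gene, 2.8-fold (adjusted p = 0.00816). The other 7 genes among the 12 largest named rises lay between 3.02-fold and 3.98-fold and included *CORI3*, *BBX23*, *CB5-C* and At1g06620, of the dioxygenase superfamily.

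Genes of aliphatic glucosinolate synthesis, the sulfur-rich defence compounds of crucifers, were mostly higher in value but seldom called. Of 14 measured, 12 had a positive change and the median was 0.98, while 2 rose and 1 fell. Among 5 platform-named members 4 had a positive change (median 0.85) and 1 rose. Among 9 study-named members, which are not independent evidence, 8 had a positive change (median 1.24), 1 rose and 1 fell. *SOT17* (At1g18590), the sulfotransferase gene of the last core step, read 7.39, 7.03 and 7.34 in wild type and 8.51, 8.53 and 8.6 in the mutant (2.45-fold, adjusted p = 0.0041). *UGT74B1* (At1g24100), the glucosyltransferase gene of the step before, rose 2.16-fold (adjusted p = 0.0383). *IMS2* (At5g23020), for chain elongation of methionine, fell from 7.65, 6.15 and 8.03 to 4.67, 4.79 and 5.04 (5.45-fold, adjusted p = 0.0403). With the replicate letter as a block 7 members were higher. With 1 array left out 1 member was higher, except without wild-type C, where 2 were. The calls for *UGT74B1* and *IMS2* were each kept in 1 of these 6 fits, that of *IMS2* only without wild-type B.

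**Figure D3:**
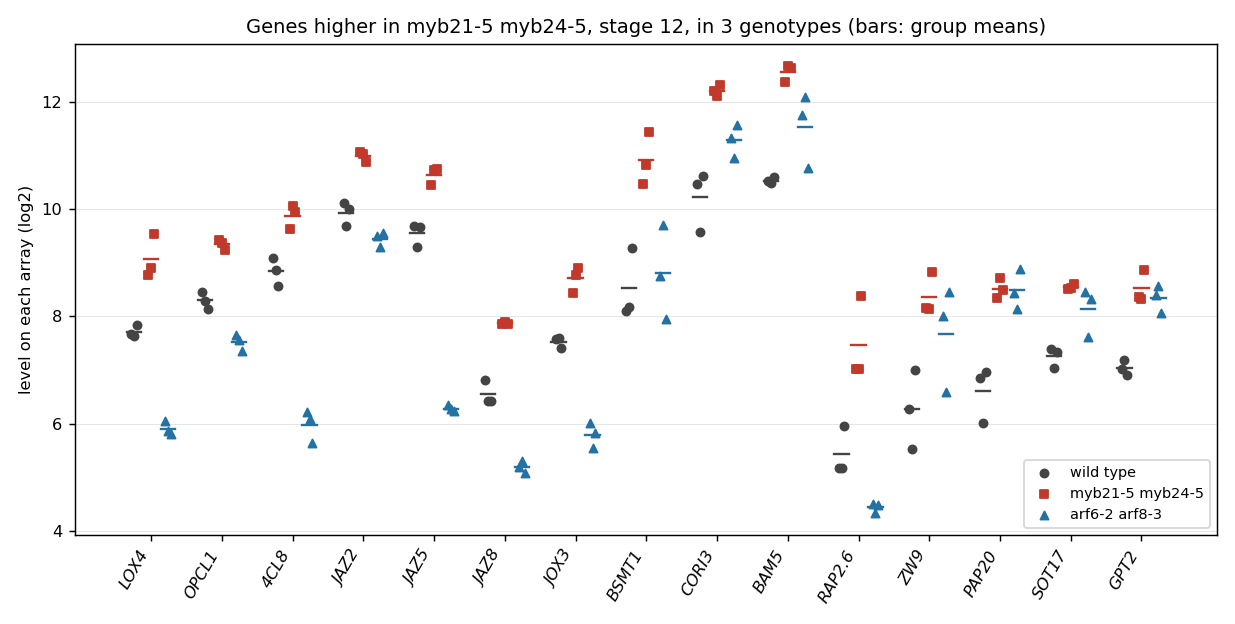
Levels (log2) on each stage 12 array for 15 genes higher in *myb21-5 myb24-5*, with wild type as grey circles, *myb21-5 myb24-5* as red squares, *arf6-2 arf8-3* as blue triangles and bars at group means of 3 arrays. For *LOX4*, *OPCL1*, *4CL8*, the *JAZ* genes, *JOX3* and *RAP2.6* the *arf6-2 arf8-3* arrays lie below wild type. For *CORI3*, *BAM5*, *PAP20*, *SOT17* and *GPT2* they lie above it, and for *BSMT1* and *ZW9* they overlap it.

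Markers of other flower tissues gave few calls. Among 20 measured genes of mature pollen 3 fell and none rose, all 3 named through the study's tables, but 19 had a negative change and the median was −0.77. The pollen receptor kinase gene *PRK4* (At3g20190) read 8.97, 9.03 and 8.4 in wild type and 7.06, 7.2 and 7.86 in the mutant (2.69-fold, adjusted p = 0.0383). *CPK17* fell 2.49-fold (adjusted p = 0.0217) and *PTEN1* 2.3-fold (adjusted p = 0.0438). The summed linear level of the 20 pollen genes was 7612 to 10420 in wild type and 4601 to 6899 in the mutant, so the pollen sum was lower in every mutant array than in any wild-type array. No pollen gene was called without wild-type A, wild-type B or mutant array B. *FLA3* (At2g24450), a cell surface protein gene of pollen, fell 2.19-fold beside them (adjusted p = 0.0436). The part of pollen in the other falls was not tested.

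No call was made in the remaining marker lists. The medians were 0.89 for 5 tapetum and exine genes, −0.03 for 12 genes of stigma, style and transmitting tract, −0.26 for 6 floral organ identity genes and 0.12 for 9 photosynthesis genes. Without mutant array C 3 tapetum and exine genes were called higher. With the replicate letter as a block 1 stigma or style gene and 1 organ identity gene were lower, the latter count also without wild-type B and with all 18 arrays. The tapetum gene *AMS* had group means of 4.48 and 5.37, under the 25th percentile of 5.7 in each genotype. The photosynthesis sum was 48770 to 57510 in wild type and 54570 to 62300 in the mutant, which overlap. Organ identity sums overlapped as well, at 2908 to 3930 and 2504 to 3166. Flavonoid and anthocyanin genes (11 measured, median 0.20) and 5 reference genes (median −0.09) had no call either, nor did 15 ribosomal protein genes (median 0.05).

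**Figure D4:**
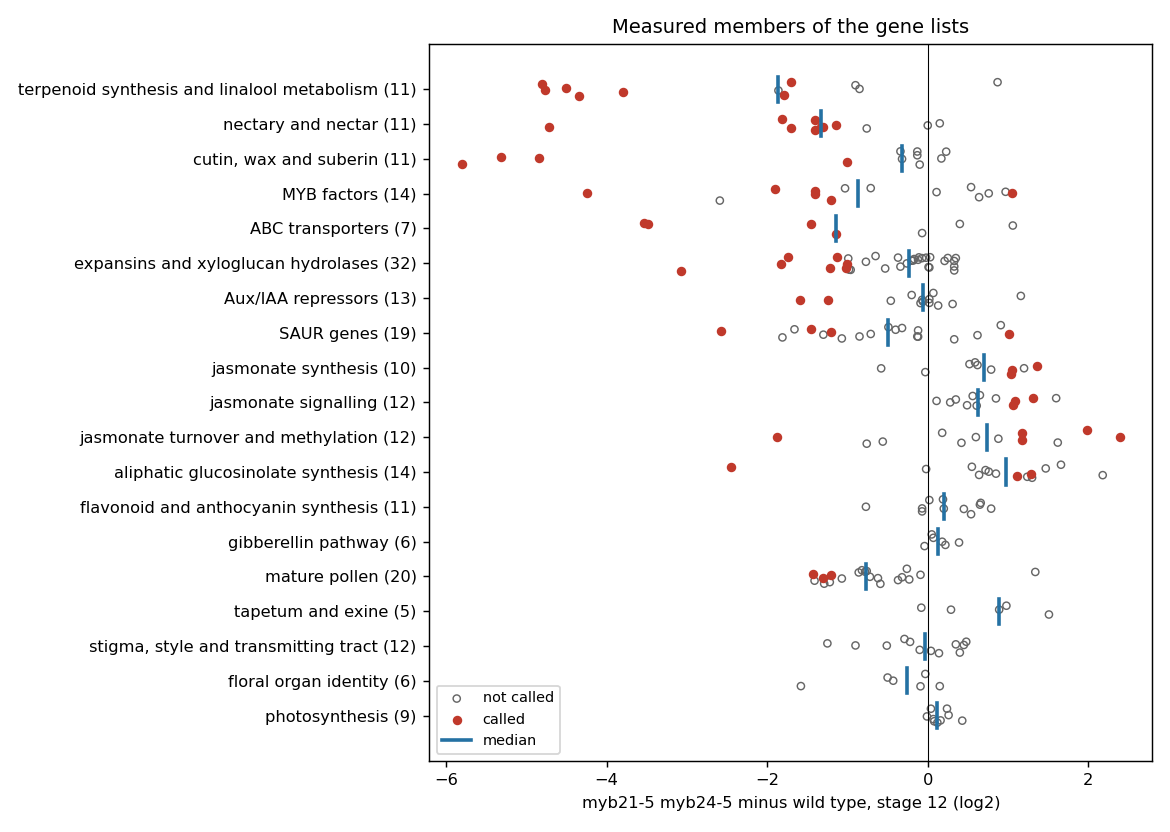
Change in *myb21-5 myb24-5* against wild type at stage 12 (log2) for each measured member of 19 gene lists, with the number measured in parentheses. Filled points passed the test, open points did not, and blue bars are list medians, lowest for the terpenoid list at −1.86.

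Stage 13 was measured on other arrays. One of them, labelled *myb21-5 myb24-5* replicate A, went against its label: *ARF6* read 4.75 there, against 9.48 and 9.21 on the other mutant arrays of that stage and 4.73 on *arf6-2 arf8-3* replicate A. Its values differed from that *arf6-2 arf8-3* array with an SD of 0.121, less than any replicate pair in the series (0.236 to 0.551). It was left out, and results with it are given beside. At stage 13 576 probe sets were lower (2.53%) and 516 higher (2.27%), together 4.8%, against 458 (2.01%) and 214 (0.941%), together 2.95%, with that array. Of the 233 probe sets lower at stage 12, 150 were also lower at stage 13 (64.4% of the stage 12 set and 26.0% of the stage 13 set), and 2 were higher. Of the 69 higher ones, 58 were also higher at stage 13 (84.1% of the stage 12 set and 11.2% of the stage 13 set), and none were lower. With the doubtful array the shared numbers were 135 and 25.

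The size of the mutant effect differed between the stages for 595 probe sets (2.62%), tested as an interaction, with 184 negative (0.809%) and 411 positive (1.81%). The number was 244 with the doubtful array, 344 without mutant array B of stage 12, 354 without wild-type B of stage 13, and 302 or 156 without mutant array B or C of stage 13. Among the 233 lower probe sets, 48 had a smaller or opposite effect at stage 13 and 20 a larger fall, and with the doubtful array both numbers were 20. Among the 69 higher, 29 rose more at stage 13 and 2 less, against 2 and 2 with the doubtful array. The stage 12 arrays enter the call and the interaction, so they are not independent.

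Several scent, nectar and wall genes were further below wild type at stage 13, where the wild-type level was higher and that of the mutant was still low. *CYP71B31* went from a mean of 8.49 to 12.49 in wild type and from 4.14 to 4.13 (arrays B and C) in the mutant, a difference of effects of −4.01 on the log2 scale (SE 0.40, adjusted p = 0.000893). *CYP76C3* showed the same course, with a difference of −2.08 (adjusted p = 0.000638), as did *SWEET9* (−1.70, adjusted p = 0.0367), *XTH19* (−3.25, adjusted p = 0.0057) and *XTH7* (−2.44, adjusted p = 0.000356). Others of these groups did not share it. The difference was not called for *TPS24* (−0.90, adjusted p = 0.175), *TPS21* (−0.40, adjusted p = 0.756) or *TPS14* (−0.56, adjusted p = 0.566). Nor was it for *TPS11* (−0.85, adjusted p = 0.11) or *CWINV4* (−0.05, adjusted p = 0.973). *EXPA11* differed in the opposite direction, by 1.66 (adjusted p = 0.0249), but not with the doubtful array (adjusted p = 0.847). The wild-type mean of *KCS17* was 10.46 at stage 12 and 7.0 at stage 13, where the mutant change was −1.1 (difference 3.73, adjusted p = 0.0185). Wild-type *IMS2* decreased by 2.67 and *ABCG20* by 2.84 on the log2 scale between the stages (adjusted p = 0.00734 and 0.0107).

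For some pollen and jasmonate genes the mutant effect differed between the stages too. *PRK4* was higher by 0.71 in the mutant at stage 13, not called (adjusted p = 0.0934), and differed from the stage 12 effect by 2.13 (adjusted p = 0.0148). *CPK17* differed by 1.92 (adjusted p = 0.00896). For *JAZ5* the wild-type mean declined from 9.55 to 7.55 at opening while mutant arrays B and C read 10.94 and 10.77, a difference of effects of 2.21 (adjusted p = 0.000638). *LOX4* (2.11, adjusted p = 0.00283) and *BAM5* (2.18, adjusted p = 0.000284) behaved likewise. With the doubtful array these 3 differences were not called. Without it the difference was also called for other jasmonate genes, such as *JOX3* (1.78, adjusted p = 0.00116) and *JAZ8* (1.27, adjusted p = 0.00733). *JAZ9* (1.11, adjusted p = 0.015) and *4CL8* (1.17, adjusted p = 0.0317) were alike. These were not called with that array either. The difference was not called without it for further jasmonate genes, such as *OPCL1* (0.29, adjusted p = 0.71), *AOS* (0.55, adjusted p = 0.299), *JAZ2* (0.74, adjusted p = 0.0738), *JAZ1* (0.00, adjusted p = 0.998) and *MYC2* (0.57, adjusted p = 0.196).

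**Figure D5:**
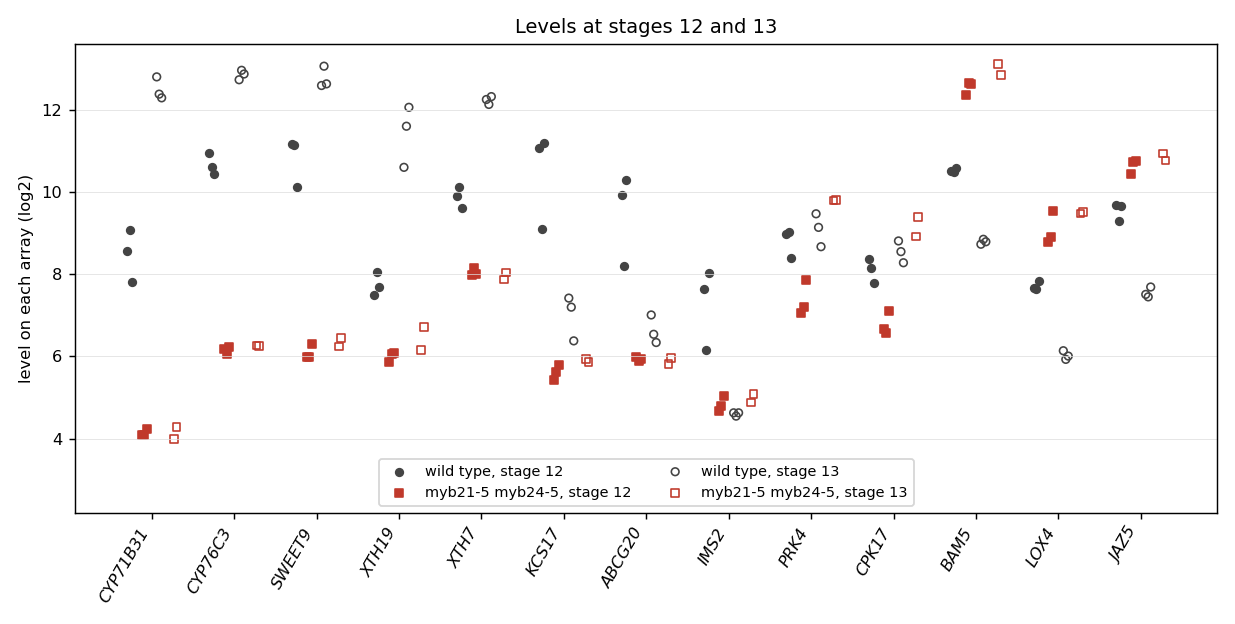
Levels (log2) on each array for 13 genes at stage 12 (filled) and stage 13 (open) in wild type (grey circles) and *myb21-5 myb24-5* (red squares), without the doubtful stage 13 mutant array. Wild-type levels of *CYP71B31*, *SWEET9* and *XTH19* are higher at stage 13, those of *KCS17*, *ABCG20* and *JAZ5* lower, and mutant levels of *CYP71B31* average 4.14 and 4.13.

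The *arf6-2 arf8-3* mutant, in which *MYB21* read 4.68, 4.4 and 4.43 at stage 12, served as another reference. Its comparison with wild type uses the same wild-type arrays, so the mutants were set against each other directly. Between them 183 probe sets (0.805%) were lower and 323 (1.42%) higher in *myb21-5 myb24-5*, 506 in all (2.22%). The *myb21-5 myb24-5* arrays that chose the genes enter this test as well. Of the 233 probe sets lower than wild type in *myb21-5 myb24-5*, 208 did not differ by this test, 18 were less reduced and 7 more reduced. Their median change against the shared wild type was −1.35 in *myb21-5 myb24-5*, the group that chose them, and −1.60 in *arf6-2 arf8-3*.

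Several genes with large falls did not differ between the mutants by the test. *GPAT5* differed by −0.05 (SE 0.23, adjusted p = 0.959), *AAE11* by −0.02 (SE 0.21), *TPS24* by 0.01 (SE 0.23), *SWEET9* by −0.02 (SE 0.28) and *CYP76C3* by −0.05 (SE 0.13). All 5 read between 5.09 and 6.47 on the mutant arrays, close to the 25th percentile. Other genes that fell, *MLP168* with its 26.4-fold fall among them, were lower still in *arf6-2 arf8-3*. *EXPA11* was 1.55 higher in *myb21-5 myb24-5* than in *arf6-2 arf8-3* (SE 0.29, adjusted p = 0.0167), *SAUR25* 2.06 (adjusted p = 0.0025), *JOX4* 1.95 (adjusted p = 0.00858), *CWINV4* 1.18 (adjusted p = 0.00532) and *MLP168* 1.21 (adjusted p = 0.00428). *XTH7* was the reverse, at 9.15, 10.02 and 9.94 in *arf6-2 arf8-3*, within 0.17 of wild type in its mean change, and 1.66 lower in *myb21-5 myb24-5* (SE 0.23, adjusted p = 0.00351).

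Genes higher in *myb21-5 myb24-5* differed in where they stood in *arf6-2 arf8-3*. Of the 69 probe sets, 35 were higher in *myb21-5 myb24-5* than in *arf6-2 arf8-3*, 34 did not differ by the test and none were lower. *JAZ5* read 6.34, 6.27 and 6.24 in *arf6-2 arf8-3*, below every wild-type array, and was 4.36 higher in *myb21-5 myb24-5* (SE 0.13, adjusted p = 7.37e-07). *4CL8* (difference 3.9, adjusted p = 1.47e-05), *LOX4* (3.16, adjusted p = 3.53e-05), *JOX3* (2.91, adjusted p = 1.88e-05) and *JAZ8* (2.67, adjusted p = 1.09e-05) were alike in this. *PAP20* (0.03, SE 0.27), *GPT2* (0.19, SE 0.18) and *PME61* (−0.22, SE 0.19) did not differ by the test and were above the wild-type arrays in each mutant.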

How the data were processed

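RNA of stage 12 flowers was measured on 6 Affymetrix ATH1 arrays. The deposited values are log2 expression values, 1 for each probe set, which the authors obtained by RMA in Genespring after scanning with MAS5 software. No raw intensities were used and no further scaling was applied. Arrays give no read depth, and 3 per group limit precision. Of 22810 probe sets, 64 controls were left out. Genes were named by the platform table (13513 probe sets with 1 gene) and then by the study's tables (512), with 503 and 28 matching several genes and 8190 unnamed. Where a gene had several probe sets, the one with the highest mean over the 6 arrays was used.

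Groups were compared in R 4.3.3 by the moderated two-sided test of limma 3.58.1 (lmFit, eBayes) on the 6 arrays, with Benjamini-Hochberg adjustment over 22746 probe sets. The interaction used 11 arrays and the contrast of the mutants 9. The fit was tested on simulated data. Replicate letters were checked for pairing: deviations from the group means correlated at 0.692 for A, 0.2306 for B and 0.3118 for C, so the letters were taken to pair the arrays, although replicate B did not match its own letter best. The alternative with this block, and others (scaling, variance model, thresholds, arrays left out in turn, the methods' t-test), are in the closing section. Arrays were left out in turn from the interaction, mutant and stage 13 comparisons as alternatives chosen after seeing the data. Named genes were the mutated and upstream genes, the 12 largest changes in each direction, up to 4 called members of each of 26 lists and 16 families (2 of the highest where none was called), genes named in the paper's text and 5 others. The comparison and the lists were chosen with earlier results of these data known. The authors' comparison columns in the study's tables were not used.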

Additional observations from a re-analysis of the deposited data

Results flagged for a closer look

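The effect of *myb21-5 myb24-5* differed between stages 12 and 13 for 595 probe sets, by the interaction test of limma without the doubtful stage 13 array. Among the named genes the values below are the stage 13 effect minus the stage 12 effect on the log2 scale. The difference was negative for *AAE11* (−1.58), *SWEET9* (−1.70), *CYP76C3* (−2.08), *CYP71B31* (−4.01), *CYP71B38* (−2.32), *XTH7* (−2.44), *XTH19* (−3.25) and *AGP14* (−2.06), all of which were further below wild type at stage 13. It was positive for *KCS17* (3.73) and *IMS2* (2.82), whose wild-type levels were lower at stage 13, and for the pollen genes *PRK4* (2.13), *CPK17* (1.92) and *FLA3* (1.62), which were not called at stage 13. For *SAUR12* the rise was larger at stage 13, by 1.65. These 14 differences were also called with the doubtful array.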

How the results depend on the processing

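None of the 79 named genes that were called changed direction under the 17 settings tried for each, and 28 kept their call in all. The call was lost for 47 without mutant array B, for 29 without wild-type A and for 25 in the fit of all 18 arrays. Pairing by replicate letter, which the main test did not use, raised the counts. With the replicate block 293 probe sets were lower and 106 higher, with no named call lost. Lower probe sets (233) numbered 369 at 1.5-fold, 384 at any fold, 95 at an adjusted p under 0.01, 356 by the methods' t-test unadjusted and 13 after Benjamini-Hochberg. Higher ones (69) numbered 151, 160, 17, 97 and 2 under those settings, and 33 with all 18 arrays. Leaving out 1 array gave 85 to 282 lower, with 139 without wild-type A, and 9 to 96 higher, with 37 without wild-type A and 26 without wild-type B. The lowest counts came without mutant array B. Scaling, variance and filter settings and other sets of arrays gave 175 to 335 lower and 59 to 87 higher. The 595 probe sets whose effect differed between stages became 244 with the doubtful array and 908 with the replicate block, and 156 to 689 with 1 array left out. The 506 that differed between the mutants were 380 to 614 with 1 array left out. The cause of these changes was not tested. With 3 arrays per group, signal near background and 8190 unnamed probe sets, genes absent from the text may still differ.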

Other observations

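Some called genes lay next to each other on the chromosomes. Among 293 called genes with a chromosome place, 13 pairs were at most 3 genes apart, of which 8 were both lower, 3 both higher and 2 opposite. As background, 10564 pairs of next tested genes were that close, 460 of them held a called gene, and in 6 both were called in the same direction. The 13 pairs, 11 of them in the same direction, were not limited to next tested genes, so the background counts an unlike set of pairs. Whether the number of pairs is more than chance gives was not tested. On chromosome 1, *LPR1* (At1g23010), which encodes a multicopper oxidase of the phosphate response of roots, fell by 3.63 on the log2 scale. Its neighbours *HIPP22* (At1g22990), for a metal-binding protein, and *FRO3* (At1g23020), for a ferric reductase, fell by 2.79 and 1.64. These 3 genes were picked after their values were seen. The annexin genes *ANNAT4* and *ANNAT3* rose by 1.03 and 1.09, and the dehydrin genes *COR47* and *ERD10* fell by 2.35 and 1.78.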
